A study of Mus musculus with 6 samples.

Results

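Genes of the unfolded protein response and of the integrated stress response were followed in the adrenal glands of adult female C57Bl/6J mice. A list of 32 genes was matched by exact gene symbol to the platform annotation, among probe sets carrying 1 symbol, and the probe set with the highest mean over the 6 arrays stood for each gene. This gave 31 genes of the 15384 that carried such a probe set, and all 31 passed the filter on low values. The missing symbol, Ero1lb, stands in the annotation under its newer name Ero1b and is given apart. The CGP group held 3 arrays and came from offspring whose mothers took CGP 39551 (CGP), a drug that blocks the NMDA receptor for glutamate, orally (5 mg/kg) while pregnant and up to the end of weaning. The control group held 3 arrays from age-matched mice labelled control, with no note on what their mothers received, and per the labels both groups had the same strain, sex, housing and chow. Adrenals were frozen at 21 weeks of age, and the RNA of 18 mice was pooled in each group. The labels leave out whether each array had a pool of its own, so p-values measure only the spread between arrays, which may be technical. The comparison asks whether blocking the receptor during development altered the expression of these genes in adulthood.

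Secreted and membrane proteins fold in the endoplasmic reticulum (ER). When unfolded protein gathers there, the membrane sensors IRE1 (gene Ern1), PERK (gene Eif2ak3) and ATF6 raise the transcription of chaperones and of the machinery that removes misfolded protein, and PERK phosphorylates the initiation factor eIF2 so that general translation slows. Other kinases phosphorylate eIF2 when amino acids, haem or antiviral defence call for it, and this shared branch is the integrated stress response, in which the transcription factor ATF4 is made and switches on genes of amino acid supply. Steroid-producing cells of the adrenal cortex are rich in smooth ER, where several enzymes of steroid synthesis sit.

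Most of the 31 genes lay close to their control values. In limma's test over all 16034 probe sets, 1 member passed an adjusted p under 0.05, which is 3.23% of the members, beside 3.53% of all probe sets tested. It was Chac1, lower in the CGP group, a direction called in 1.59% of all probe sets. Limma called 0 members higher, beside 1.94% of all probe sets, and 1 member had an unadjusted p under 0.05 in that direction. At an unadjusted p under 0.05 there were 8 members (25.8%, beside 19.3% of all probe sets), of which 7 were lower (22.6%, beside 8.52%) and 1 was higher (3.23%, beside 10.8%). The arrays of the groups did not overlap for 11 members (35.5%, beside 26.3% of all probe sets). In 8 of these every CGP array lay below every control array (25.8%, beside 12.6%), and in 3 every CGP array lay above (9.68%, beside 13.7%). The median log2 fold change of the members, CGP minus control, was -0.03, beside -0.011 over all probe sets, and the differences ran from -0.28 to 0.13. It was below 0 in 19 members (61.3%, beside 54.4%). The 95% intervals of the members had a median half-width of 0.112 on the log2 scale, so that differences in single genes smaller than this could mostly not be told from 0.

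**Figure D1:**
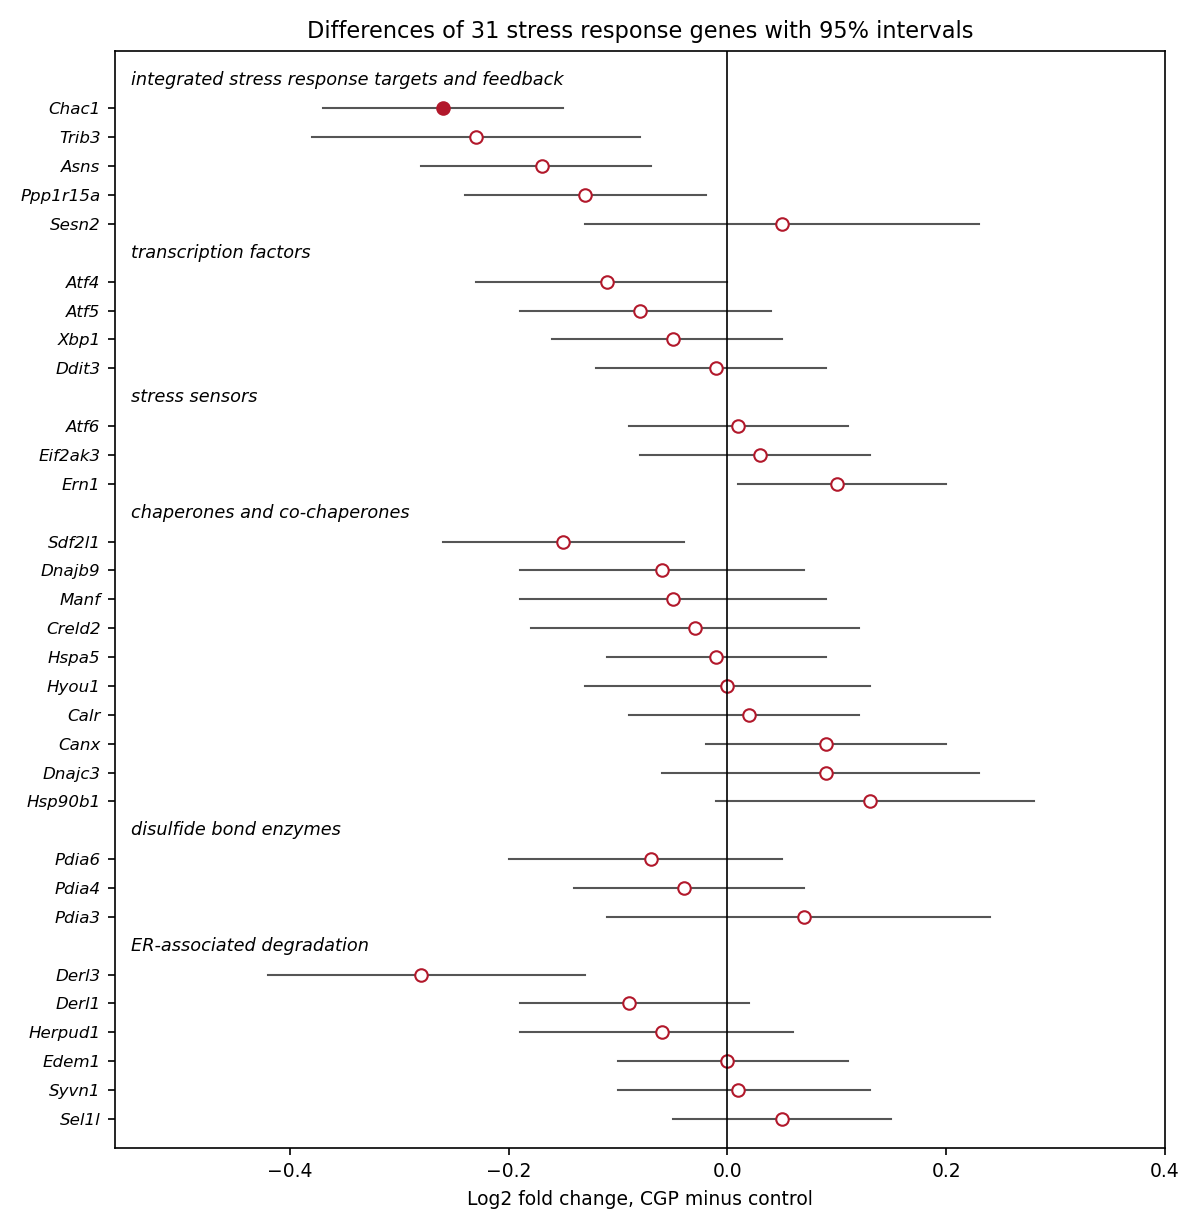
The 31 genes by log2 fold change (CGP minus control, horizontal axis) and by name (vertical axis, grouped by role), each with its 95% interval from limma. The filled point is Chac1, which passed an adjusted p under 0.05, and open points did not pass. Of the 5 integrated stress response targets 4 have intervals wholly below 0, while the chaperone Hspa5 sits at -0.01.

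Across the series 566 of 16034 probe sets passed the test, 311 higher and 255 lower in the CGP group, and the number called ranged between 236, without CGP 2, and 1099, without control 1, when an array was left out. The glands read as adrenal on every array: the 11 tested cortex genes, such as Star and Cyp11a1, had a median of 12.84 to 12.95 on the CGP arrays and 12.68 to 12.83 on the control arrays. The 15 chromaffin genes had a median difference of -0.04, and limma called none of them or of the cortex genes. In each list 2 had an unadjusted p under 0.05 (beside 19.3% of all probe sets). Markers of other tissues moved with the groups. Limma called 28 of 29 tested genes of hepatocytes lower in the CGP group, beside 1.59% of all probe sets. Their per-array median was 8.91 to 9.01 on CGP arrays and 9.82 to 9.97 on control arrays. Of 18 tested genes of adipocytes limma called 16 higher, beside 1.94% of all probe sets. In all 18 every CGP array lay above every control array (beside 13.7% of all probe sets), with a median difference of 0.50. None of these genes was under the array background on all 6 arrays. Hepatocytes and adipocytes express stress response genes as well, and the part of these tissues in the differences below was not tested. In pooled tissue RNA, fewer cells of a type and less RNA per cell cannot be told apart.

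The targets of the integrated stress response were the group with the largest shift among the 6 role groups, with a median of -0.17 over 5 genes. In 4 of them every CGP array lay below every control array, beside 12.6% of all probe sets. The role groups were formed with earlier results of these data known, so this ranking is only a description. Atf5 (-0.08) and Ddit3 (-0.01), whose groups overlapped, were placed with the transcription factors. Chac1 encodes an enzyme that degrades glutathione and is a target of ATF4. Its values were 9.05, 9.02 and 9.11 on CGP arrays 1 to 3, against 9.28, 9.32 and 9.37 on control arrays 1 to 3 (probe set 10474972). The highest CGP array thus lay below the lowest control array, and the level in the CGP group was 0.83 of that in controls (9.06 ± 0.04 in CGP and 9.32 ± 0.04 in controls, SD, n = 3 arrays each, log2 difference -0.26, SE 0.05, limma adjusted p = 0.0275). Leaving out control 1 kept the call (adjusted p = 0.0279), and leaving out any of the other 5 arrays ended it (0.0676 to 0.140), with differences between -0.28 and -0.24 throughout.

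Trib3 encodes a pseudokinase induced by ATF4 and CHOP that in turn restrains ATF4. It read 7.15, 7.33 and 7.24 on the CGP arrays, against 7.43, 7.57 and 7.42 on the control arrays. The groups did not overlap, with CGP array 2 and control array 3 the nearest, and the difference of -0.23 (SE 0.07) did not pass the test (limma adjusted p = 0.109). Asns encodes asparagine synthetase, a classic target of the amino acid branch. Its values were 11.52, 11.50 and 11.56 on the CGP arrays, against 11.66, 11.74 and 11.69 on the control arrays. The groups were again apart, and the difference of -0.17 (SE 0.05) did not pass at an adjusted p of 0.0897 in limma, though it did with a variance trend and robust prior (0.00433) and with array weights (0.0327).

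Ppp1r15a encodes GADD34, the phosphatase subunit that removes the phosphate from eIF2 and so closes the response. It read 9.40, 9.43 and 9.37 on the CGP arrays, against 9.56, 9.55 and 9.48 on the control arrays, a difference of -0.13 (SE 0.05, limma adjusted p = 0.193). All CGP values lay below all control values. Sesn2, a stress-induced regulator of the kinase complex mTORC1, was the exception in this group. Its values of 8.60, 8.62 and 8.34 on the CGP arrays spanned the 8.43, 8.49 and 8.49 of the control arrays, with CGP array 3 low, and the difference was 0.05 (SE 0.08, limma adjusted p = 0.771).

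**Figure D2:**
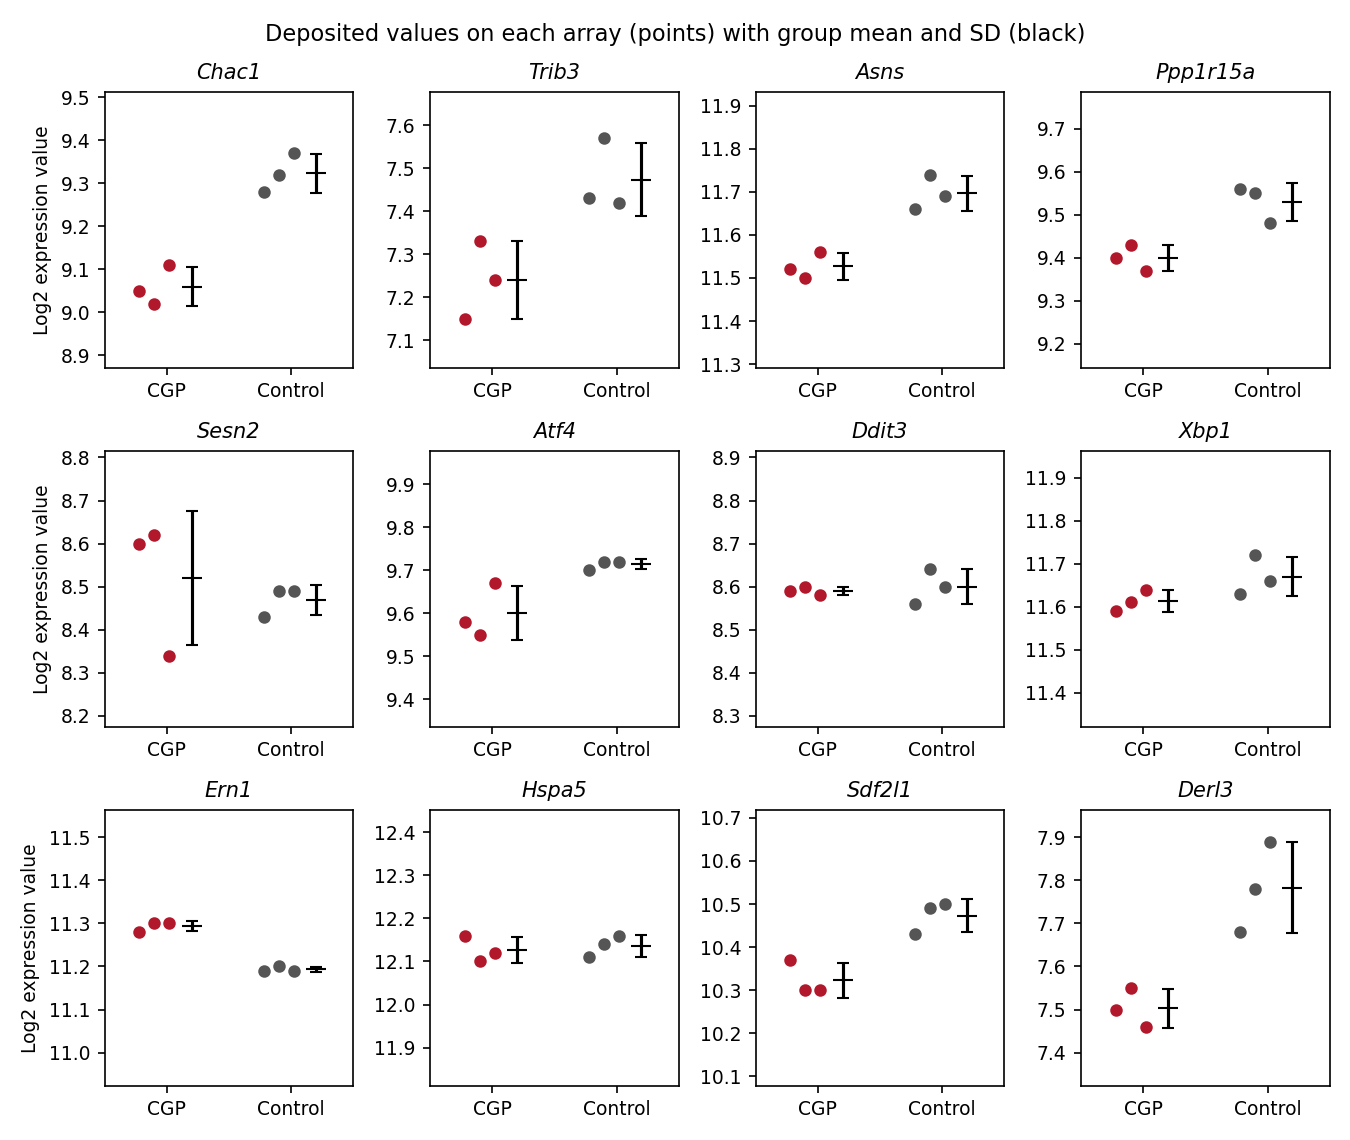
Deposited log2 values (vertical axes, each spanning the same log2 range) of 12 genes on the 3 CGP arrays (red) and the 3 control arrays (grey), with group means and SDs drawn in black. The groups are apart for Chac1, Trib3, Asns, Ppp1r15a, Atf4, Ern1, Sdf2l1 and Derl3 and overlap for Sesn2, Ddit3, Xbp1 and Hspa5, and of these 12 genes Chac1 passed the test.

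ATF4 binds DNA at a composite element that joins a site of the C/EBP factors to one of the ATF factors (C/EBP-ATF response element, CARE). Promoter windows of RefSeq (GRCm38.p6), each holding 250 bases before and 50 after a start site, were searched on both strands for TGATGNAA (TTNCATCA on the other strand), a short form of this element. Of the 31 members 27 had a window, and 4 of the 27 held a match (14.8%). Counted by gene in the same way, 324 of the 11628 tested genes with a window held one (2.79%). Counted by window, the share was 3.97% of all 32851. The 4 genes were Chac1, Trib3, Asns and Herpud1, and 3 of them were in the group of integrated stress response targets. The sites are shown because 3 of these genes belong to the group with the lowest median. They are given 5′ to 3′ along the gene, with the fixed letters of the element in capitals.
Chac1 (chr2:119351038-119351067, plus strand): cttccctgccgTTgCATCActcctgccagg
Trib3 (chr2:152344028-152344057, minus strand): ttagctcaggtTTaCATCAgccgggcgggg
Asns (chr6:7693214-7693243, minus strand): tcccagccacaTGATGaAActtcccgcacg
Herpud1 (chr8:94386306-94386335, plus strand): accacggcgggTTgCATCAgcccgcacccc
The match began 193 bases before the start site in Chac1, 112 before it in Herpud1 and 23 before it in Asns, and lay within the transcribed part of Trib3, from base 15. The median difference of these 4 members was -0.20 (from -0.26 to -0.06), beside 0.01 for the 9 members with an ER stress response element and -0.03 for the 14 with neither. Over all 324 tested genes with this element in a window, which include these 4 members, the median was -0.01. Limma called 7 higher and 9 lower, beside 1.94% and 1.59% of all probe sets. A match is a description of the window and not a measured binding site. The motifs were chosen after the results were known, and Chac1, Trib3 and Asns also belong to the group with the lowest median. The medians by motif are thus only a description. The 250 bases before the start site of Chac1, the gene that passed the test, are given in full with the same letters in capitals.
Chac1 (chr2:119350992-119351241, plus strand): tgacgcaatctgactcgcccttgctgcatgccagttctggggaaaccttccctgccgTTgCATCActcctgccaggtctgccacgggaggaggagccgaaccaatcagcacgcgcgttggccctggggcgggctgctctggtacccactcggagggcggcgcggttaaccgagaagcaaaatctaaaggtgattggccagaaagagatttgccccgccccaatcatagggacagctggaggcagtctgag

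**Figure D3:**
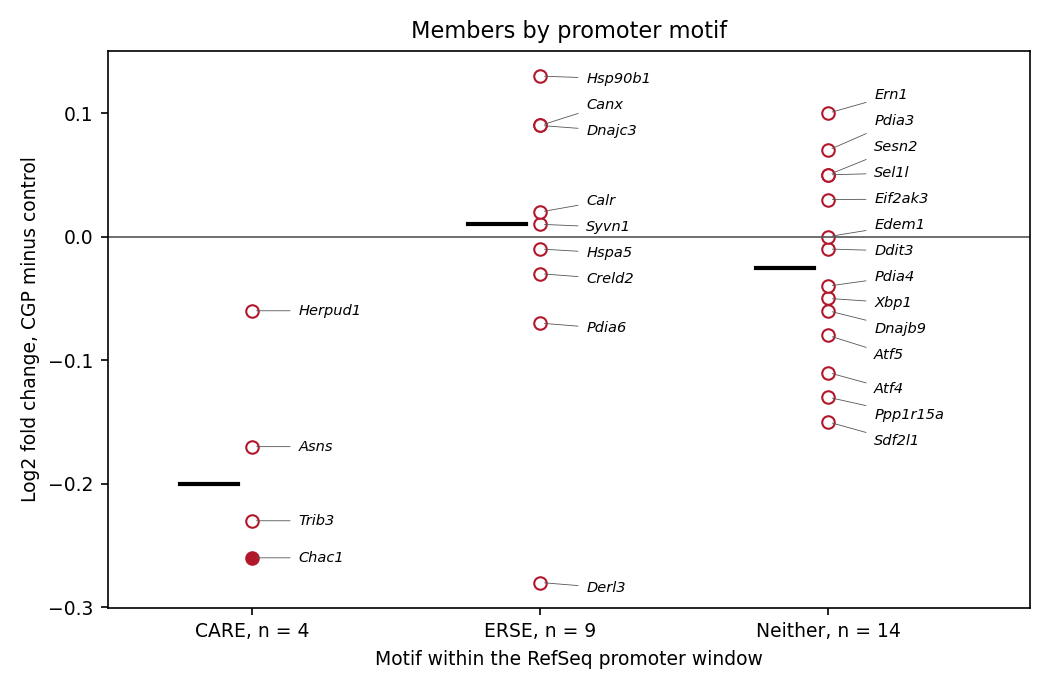
Log2 fold change (vertical axis, CGP minus control) of the 27 members with a RefSeq promoter window, split by whether the window held a CARE, an ER stress response element (ERSE) or neither (horizontal axis), with the median of each set as a black bar. The 4 genes with a CARE lie between -0.26 and -0.06 with a median of -0.20, the 9 with an ERSE have a median of 0.01, and the filled point, Chac1, is the member that passed the test. The motifs were chosen after the results were known.

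All 4 transcription factors had a difference below 0 (beside 54.4% of all probe sets), and none passed the test in limma. In this group 1 had an unadjusted p under 0.05, beside 19.3% of all probe sets. Atf4 itself read 9.58, 9.55 and 9.67 on the CGP arrays, against 9.70, 9.72 and 9.72 on the control arrays. CGP array 3 lay just under the lowest control array, and the difference of -0.11 (SE 0.05) had an unadjusted p of 0.0468 and a limma adjusted p of 0.252. ATF4 is controlled largely at translation, so its RNA level is not a readout of its protein. Atf5, a related factor that follows ATF4, differed by -0.08 (SE 0.05, limma adjusted p = 0.440), with overlapping groups.

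Ddit3 encodes CHOP, the factor linked to cell death under prolonged ER stress. It read 8.59, 8.60 and 8.58 on the CGP arrays, against 8.56, 8.64 and 8.60 on the control arrays, with the CGP values inside the control range. The difference was -0.01 (95% interval from -0.12 to 0.09, limma adjusted p = 0.899). Xbp1 encodes the factor whose RNA is spliced by IRE1, and a value for the whole gene does not report the splicing. Its values were 11.59, 11.61 and 11.64 on the CGP arrays, against 11.63, 11.72 and 11.66 on the control arrays, a difference of -0.05 (SE 0.05, limma adjusted p = 0.564) with CGP array 3 inside the control range.

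The 3 sensors had differences above 0, where 54.4% of all probe sets lay below 0. None passed the test in limma, and 1 had an unadjusted p under 0.05 (beside 19.3% of all probe sets). Ern1, the kinase and RNase IRE1, read 11.28, 11.30 and 11.30 on the CGP arrays, against 11.19, 11.20 and 11.19 on the control arrays. The groups were well apart for the spread within them, but the difference was small at 0.10 (SE 0.04) and did not pass (unadjusted p = 0.0381, limma adjusted p = 0.229). Eif2ak3, the kinase PERK, read 8.38, 8.43 and 8.34 on the CGP arrays, against 8.38, 8.35 and 8.34 on the control arrays, a difference of 0.03 (SE 0.05, limma adjusted p = 0.794). Atf6, the sensor that is cut in the Golgi to free a transcription factor, read 9.51, 9.52 and 9.54 on the CGP arrays, against 9.54, 9.48 and 9.53 on the control arrays, a difference of 0.01 (SE 0.04, limma adjusted p = 0.930). Both overlapped between the groups.

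Of the 10 chaperones and co-chaperones none passed the test in limma, and their median was -0.01. In this group 1 had an unadjusted p under 0.05 (beside 19.3% of all probe sets). Hspa5 encodes BiP, the main Hsp70 chaperone of the ER lumen, whose induction is the usual sign of an unfolded protein response. It read 12.16, 12.10 and 12.12 on the CGP arrays, against 12.11, 12.14 and 12.16 on the control arrays (probe set 10471586). The groups had nearly the same range, and the difference of -0.01 had a 95% interval from -0.11 to 0.09 (limma adjusted p = 0.918). Hsp90b1, the ER Hsp90 called GRP94, read 10.87, 10.97 and 11.02 on the CGP arrays, against 10.92, 10.74 and 10.78 on the control arrays. Its difference of 0.13 (SE 0.06, limma adjusted p = 0.297) was the highest among the members, and control array 1 lay inside the CGP range.

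Sdf2l1 encodes a partner of the ER co-chaperones of the DnaJ family. It read 10.37, 10.30 and 10.30 on the CGP arrays, against 10.43, 10.49 and 10.50 on the control arrays. The groups did not overlap, and the difference of -0.15 (SE 0.05) did not pass the test (limma adjusted p = 0.135). Canx, the membrane lectin chaperone calnexin, had every CGP array above every control array at a difference of 0.09 (SE 0.05, limma adjusted p = 0.357), while Calr, its lumenal relative calreticulin, differed by 0.02 (SE 0.05) with overlapping groups.

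The remaining chaperone genes overlapped between groups. Hyou1, the ER Hsp110 that exchanges nucleotide on BiP, differed by 0.00 (SE 0.05). Dnajb9 and Dnajc3, co-chaperones of BiP, differed by -0.06 and 0.09 (SE 0.06 each), and the secreted stress proteins Manf and Creld2 by -0.05 and -0.03 (SE 0.06 each). Their limma adjusted p lay between 0.491 and 0.990. Dnajc3 has a pair of probe sets with identical values on all 6 arrays, which were counted as 1.

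ATF6 and XBP1 act on many of these genes through the ER stress response element (ERSE), in which a site for the factor NF-Y stands at a fixed distance from the letters that the stress factor reads. The full element, CCAAT and CCACG with 9 bases of any kind between them, on either strand, was found in 39 of 32851 windows (0.119%). Counted by gene, 9 of the 27 members with a window held it (33.3%), beside 19 of the 11628 tested genes with a window (0.163%). The members were Hspa5, Hsp90b1, Canx, Calr, Dnajc3, Creld2, Pdia6, Derl3 and Syvn1, and Hsp90b1 held it at 2 places. The sites are shown because 6 of the 9 genes are chaperones or co-chaperones, and Derl3, a gene of degradation, had the widest difference of the members. They are given 5′ to 3′ along the gene (GRCm38.p6), with the fixed letters in capitals.
Calr (chr8:84847065-84847103, minus strand): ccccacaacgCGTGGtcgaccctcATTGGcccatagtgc
Canx (chr11:50325790-50325828, minus strand): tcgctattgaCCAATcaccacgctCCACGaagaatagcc
Creld2 (chr15:88819510-88819548, plus strand): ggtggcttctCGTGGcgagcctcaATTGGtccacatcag
Derl3 (chr10:75893232-75893270, plus strand): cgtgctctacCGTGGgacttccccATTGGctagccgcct
Dnajc3 (chr14:118937817-118937855, plus strand): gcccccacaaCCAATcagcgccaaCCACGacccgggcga
Hsp90b1 (chr10:86705523-86705561, minus strand): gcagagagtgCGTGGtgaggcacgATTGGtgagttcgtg
Hsp90b1 (chr10:86705628-86705666, minus strand): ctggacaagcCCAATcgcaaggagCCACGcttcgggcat
Hspa5 (chr2:34772015-34772053, plus strand): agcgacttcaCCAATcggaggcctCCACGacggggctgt
Pdia6 (chr12:17266481-17266519, plus strand): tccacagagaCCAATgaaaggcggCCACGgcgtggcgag
Syvn1 (chr19:6046522-6046560, plus strand): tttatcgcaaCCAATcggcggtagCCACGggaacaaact
The distance from the start site ran from 44 bases in Syvn1 to 212 in Hsp90b1. Of the 9 genes 4 had a difference below 0 (beside 54.4% of all probe sets), and the range was -0.28, in Derl3, to 0.13, in Hsp90b1. Over all 19 tested genes with this element, which include these 9 members, the median was 0.01. Limma called 1 higher and 1 lower, beside 1.94% and 1.59% of all probe sets.

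The 3 disulfide bond enzymes overlapped between groups, and limma called none of them (0 also at an unadjusted p under 0.05). Pdia3, the oxidoreductase that works with calnexin and calreticulin, differed by 0.07 (SE 0.08), Pdia4 by -0.04 (SE 0.04) and Pdia6, which also acts on the IRE1 sensor, by -0.07 (SE 0.05). A further probe set of Pdia4 lay under background on all 6 arrays and says nothing of a change. Ero1b, the oxidase listed as Ero1lb, read 8.14, 8.05 and 8.11 on the CGP arrays, against 8.11, 7.91 and 8.05 on the control arrays. With it the list would hold 32 genes, and its difference of 0.08 (SE 0.06, limma adjusted p = 0.521) did not pass.

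Among the 6 genes of ER-associated degradation, which returns misfolded protein to the cytosol, Derl3 had the widest difference of all members. Derl3 is a channel component of the derlin family that is found above all in secretory tissues. It read 7.50, 7.55 and 7.46 on the CGP arrays, against 7.68, 7.78 and 7.89 on the control arrays (probe set 10364093). The groups were apart, with more spread among the controls than among the CGP arrays, and the mean was 1.21-fold lower in the CGP group (log2 difference -0.28, SE 0.06), which just missed the threshold (limma adjusted p = 0.0564). Of 16 alternatives 6 made the call: without control 1 (0.0235), with a filter at log2 7 (0.0346), with quantile normalisation (0.0397) or median centring (0.0436), with a variance trend (0.0355) and with array weights (0.0139). The other 10 did not, among them those that left out any of the other 5 arrays (0.119 to 0.206), the one with the array number as a replicate block (0.168) and the one with all probe sets of the table (0.140).

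Unlike Derl3, a further gene of secretory cells passed the test. Bhlha15, the factor MIST1 of exocrine and plasma cells, read 7.08, 7.16 and 7.11 on the CGP arrays, against 7.44, 7.39 and 7.39 on the control arrays, and fell by 0.29 (SE 0.05, limma adjusted p = 0.0142). It belonged to a list of 15 genes of the exocrine pancreas, of which 10 were on the array and 7 passed the filter on low values. The digestive enzyme gene Cela3b was under background on all 6 arrays, and Bhlha15 was the 1 gene called (beside 1.59% of all probe sets called lower). Of the 7 genes 3 had an unadjusted p under 0.05, beside 19.3% of all probe sets. The per-array median of the 7 tested genes was 7.08 to 7.14 on the CGP arrays and 7.31 to 7.39 on the control arrays. In the list of plasma and B cells 7 genes were tested, with a median of -0.06 and 5 below 0 (beside 54.4% of all probe sets). Limma called 1 higher and 1 lower, beside 1.94% and 1.59% of all probe sets, and 4 had an unadjusted p under 0.05 (beside 19.3%). Among the 7 genes Mzb1, a chaperone of antibody folding, differed by 0.00. Sdc1 fell by 0.27 (limma adjusted p = 0.0401), and the other called gene, Irf4, which fat also expresses, rose by 0.86. The part of these cells in the value of Derl3 was not tested.

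The other genes of degradation stayed near 0. Derl1, the general derlin, read 11.18, 11.23 and 11.21 on the CGP arrays, against 11.25, 11.31 and 11.31 on the control arrays, a difference of -0.09 (SE 0.04, limma adjusted p = 0.327) without overlap. Herpud1, a scaffold of the ubiquitin ligase complex, read 11.28, 11.15 and 11.16 on the CGP arrays, against 11.22, 11.27 and 11.29 on the control arrays, with CGP array 1 among the controls and a difference of -0.06 (SE 0.05, limma adjusted p = 0.543). Syvn1, the ligase HRD1, differed by 0.01 (SE 0.05), its partner Sel1l by 0.05 (SE 0.04, every CGP array above every control array before rounding) and the mannosidase-like protein Edem1 by 0.00 (SE 0.05).

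A wider set held 139 other genes of these pathways. Of its 127 tested genes 1 was higher (beside 1.94% of all probe sets) and 2 were lower (beside 1.59%). The other 124 did not pass (limma adjusted p under 0.05), and the median of the set was -0.03. The 38 tested partners and targets of ATF4 had a median of -0.07. Of the 38 genes 12 had an unadjusted p under 0.05 (beside 19.3% of all probe sets), and 26 lay below 0 (beside 54.4%). Every CGP array lay below every control array in 15 of them (beside 12.6% of all probe sets) and above in 4 (beside 13.7%). The medians of the other lists ran from -0.05, for 21 genes of ER translocation and for 7 of ER stress cell death, to 0.01, for 20 further genes of ER-associated degradation.

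Cth, the enzyme that makes cysteine and is strongly expressed in liver, read 8.47, 8.55 and 8.53 on the CGP arrays, against 9.17, 9.03 and 9.11 on the control arrays. It fell by 0.59 (SE 0.05, limma adjusted p = 0.000770) and was called in all 6 fits that left out an array. Slc1a5, a glutamine transporter, went the opposite way at 10.78, 10.76 and 10.72 on the CGP arrays, against 10.28, 10.27 and 10.34 on the control arrays. It rose by 0.46 (SE 0.05, limma adjusted p = 0.00131), also in all 6 of those fits. Among the ER stress cell death genes Bcl2l11, the pro-death protein BIM, read 8.44, 8.55 and 8.57 on the CGP arrays, against 8.90, 8.76 and 8.77 on the control arrays, and fell by 0.29 (SE 0.06, limma adjusted p = 0.0426). Its call was lost in each of the 6 fits that left out an array (adjusted p 0.0501 to 0.137). Hepatocyte markers fell and adipocyte markers rose on these arrays, and their part in the changes of Cth and Slc1a5 was not tested.

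Several genes of amino acid supply in the ATF4 list did not reach the threshold, and those given here were picked with their values in view. Slc7a5, a transporter of large neutral amino acids, differed by -0.21 (SE 0.05, limma adjusted p = 0.0623), the proline synthesis enzyme Aldh18a1 by -0.20 (SE 0.04, 0.0503), the serine transporter Slc1a4 by -0.27 (SE 0.07, 0.0897) and the mitochondrial folate enzyme Mthfd2 by -0.24 (SE 0.06, 0.0912). All 4 had every CGP array below every control array. Other genes of the list lay at or above 0 after rounding: the isoleucine tRNA synthetase Iars differed by 0.11 with overlapping groups, the arginine transporter Slc7a1 by 0.09 with every CGP array above every control array, and the glutamine transporter Slc38a2 by 0.00. Slc3a2, the partner chain of Slc7a5, differed by -0.01. Of the 100 tested genes of this wider set with a promoter window, 15 held the CARE (15%) and 0 the full ERSE. Limma called none of the 15, beside 3.53% of all probe sets, and 3 had an unadjusted p under 0.05 (beside 19.3%). Of the 15 genes 12 lay below 0 (beside 54.4% of all probe sets), and their median was -0.07. Of all 324 tested genes with the CARE 170 lay below 0.

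**Figure D4:**
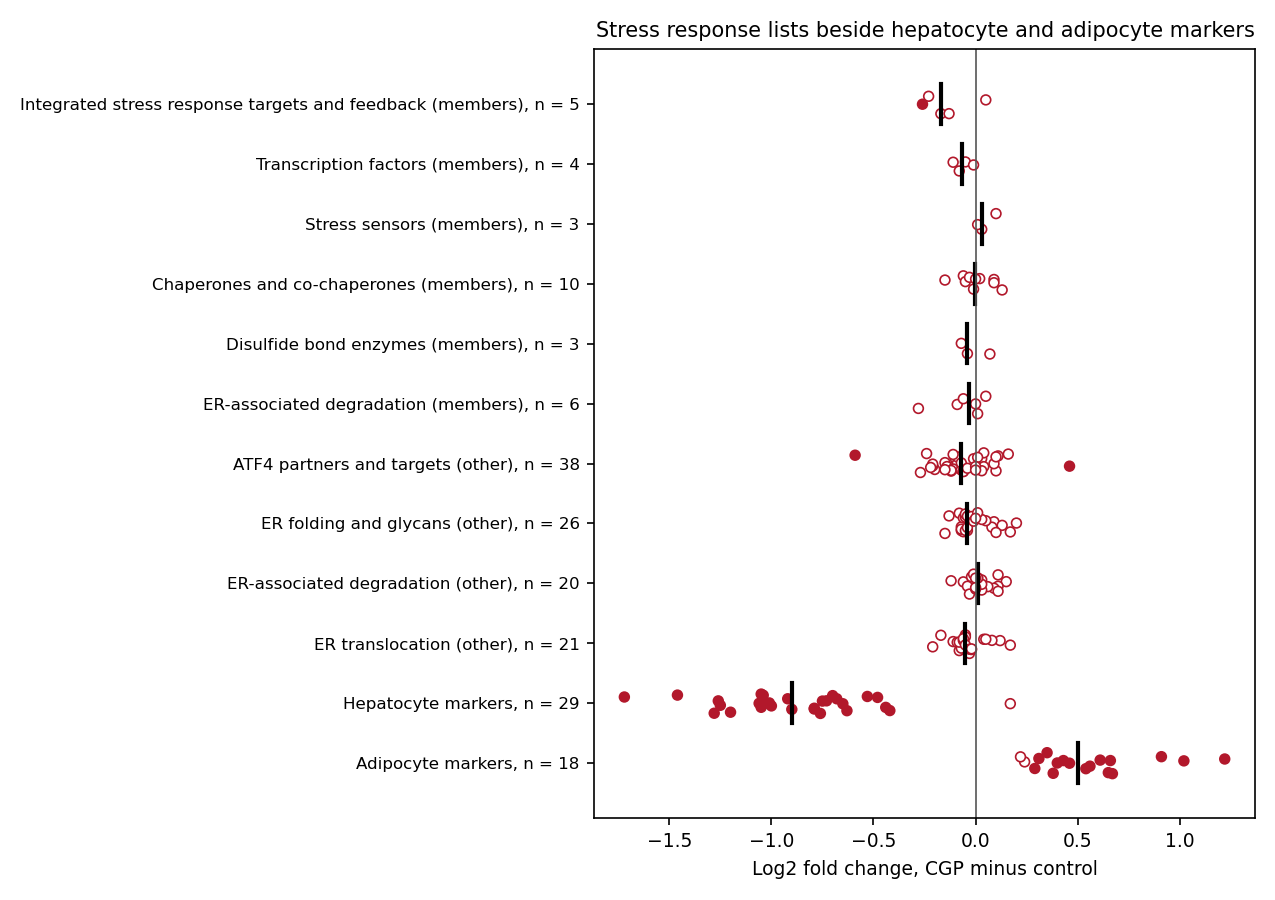
Tested genes by log2 fold change (CGP minus control, horizontal axis) in the role groups of members, in 4 lists of other pathway genes and in the hepatocyte and adipocyte lists (vertical axis, with the number of genes), with filled points for an adjusted p under 0.05 and a black bar at each median. The medians of the stress response lists lie between -0.17 and 0.03, against -0.90 for the hepatocyte and 0.50 for the adipocyte markers.

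Chaperones outside the ER, mostly cytosolic heat shock proteins and with the mitochondrial Hspd1 and Hspe1 among them, had a median of 0.06 over 25 tested genes. In limma 1 was higher (Hsph1, by 0.28, beside 1.94% of all probe sets) and 0 were lower. At an unadjusted p under 0.05 there were 5, beside 19.3% of all probe sets. In 9 every CGP array lay above every control array, beside 13.7% of all probe sets. The difference between that list and the ER chaperones was not tested.

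Across the arrays, the mean deviation of the members from their own 6-array means was -0.035, -0.003 and -0.023 on the CGP arrays, against 0.021, 0.010 and 0.030 on the control arrays. Over all probe sets it was -0.002, 0.003 and -0.009 on the CGP arrays, against -0.002, -0.011 and 0.021 on the control arrays. Control array 3 was thus the highest over all probe sets as well. Control array 3 held the highest value of 11 members and CGP array 1 the highest of 1, whereas the lowest value was on CGP array 1 for 9 members and on control array 3 for 2. The same counts were not made over all probe sets. The spread within groups was lower for the members (median SD 0.0437) than over all probe sets (0.0758). The members were also brighter, with a median log2 level of 10.40 against 8.22, and the part of brightness in the spread was not tested.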

How the data were processed

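The authors deposited log2 expression values for 25150 probe sets on 6 Affymetrix whole-transcript arrays. The submitters' processing notes name RMA (background correction, quantile normalisation between arrays and a summary value per probe set) and Partek, and the annotation used for this is not given in the sources used here. RNA pooled from 18 mice a group had been extracted with a column kit for lipid-rich tissue. Values ran from 3.75 to 14.6 and array medians from 7.91 to 7.96, and no further normalisation was applied. RMA sets the arrays to 1 distribution, so a shift of all genes cannot be seen, and it compresses differences of dim probe sets. Precision rests on the number of arrays. No column was left unused.

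Probe sets with 1 gene symbol in the platform annotation (16769, with 1031 having several and 7350 none) were tested where 3 or more of the 6 arrays reached a log2 value of 6, 16034 in all, of 14727 genes. Groups came from the sample titles. Differences between CGP and control arrays were tested with limma 3.58.1 (R 4.3.3, two-sided moderated test, no covariates), with Benjamini-Hochberg adjustment over all 16034. SD is the standard deviation over 3 arrays and SE the moderated standard error of the log2 difference. Background was the 75th percentile of 127 sensory receptor probe sets on each array (6.42 to 6.65). The test was checked on simulated arrays. Levels of different probe sets were not compared, apart from the median level of the members beside that of all probe sets. The members, the role groups and all lists were chosen with earlier results of these data known, so no p-value was adjusted over a list alone and no list was tested as a set. Values on every array are given for members with an adjusted p under 0.05, for the 10 with the smallest p and for 11 fixed members (Hspa5, Ddit3, Atf4, Xbp1, Chac1, Trib3, Asns, Herpud1, Ern1, Eif2ak3 and Atf6), and Sesn2 was added after its values were seen. Of other pathway genes those with an adjusted p under 0.05 are named, and others named were chosen after their values were seen. Promoter windows and gene positions are from RefSeq (GRCm38.p6), and the motifs were chosen after the results were known. Alternatives were other filters and sets of probe sets, other normalisation, another variance model, weights per array, a threshold of 1.2-fold on the change, array number as a blocking factor, omission of each array and, added later, Ero1b as a member and the median of the integrated stress response targets.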

Additional observations from a re-analysis of the deposited data

How the results depend on the processing

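With 3 arrays a group, differences under about the half-width of the intervals could not be resolved. The count of members called, 1 of 31, became 2 with a filter at log2 7, with quantile normalisation or with median centring (Derl3 beside Chac1), and 4 with a variance trend and robust prior or with array weights (Chac1, Derl3, Asns and Sdf2l1). It became 0 with all probe sets of the table, with a minimum change of 1.2-fold and with the array number as a replicate block, and lay between 0 and 2 when an array was left out. The cause was not tested. No alternative called a member higher. The count over all probe sets, 566, became 348 with all probe sets of the table, 1261 with the variance trend, 1665 with array weights, 126 with the minimum change and 224 with the replicate block, and 236 to 1099 when an array was left out (1099 without control 1, 236 without CGP 2). Deviations of same-numbered arrays from their group means correlated at -0.357, -0.169 and -0.118, and those of differently numbered arrays at -0.157 to 0.276. Such deviations sum to 0 within a group, so these values cannot settle whether the array numbers pair the arrays.

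The median of the members, -0.032, ran from -0.044 without CGP 2 to -0.008 without CGP 3, and that of the 5 integrated stress response targets, -0.17, from -0.19 to -0.15 over the 6 fits that left out an array. Of 560 values of single genes under an alternative, 509 kept direction and side of the threshold, 18 lost and 10 gained a call, and 23 turned in sign. All of the turned values belonged to genes that were not called and lay near 0: Hyou1 (0.00 with quantile normalisation, 0.02 with array weights), Edem1 (0.00 with quantile normalisation, -0.01 with median centring), Atf6 (0.00 with median centring) and Syvn1 (-0.01 with array weights). When an array was left out, Hyou1 ran from -0.04 to 0.03, Edem1 from -0.01 to 0.02, Atf6 from -0.01 to 0.02, Syvn1 from -0.02 to 0.04, Hspa5 from -0.03 to 0.00, Ddit3 from -0.03 to 0.01, Calr from 0.00 to 0.05, Creld2 from -0.08 to 0.01 and Sesn2 from 0.00 to 0.14.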
